A study of Mus musculus with 3 samples.

Results

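Nuclei with transcripts of simple-epithelium keratins and of the epithelial transcription factor Ehf were examined in mouse lacrimal gland, the gland that makes the watery part of the tear film. A nucleus was chosen when Krt7, Krt8, Krt18, Krt19, Krt23, Wfdc2, Cldn4, Elf3, Elf5 and Ehf together had at least 3 unique molecular identifiers (UMIs, each a counted RNA molecule), from at least 2 of the genes, and made up at least 0.1% of its UMIs. It had to hold less than 0.3% Car6, less than 30% of the secretory transcripts Mucl2, Scgb2b2 and Scgb1b2, and at most 0.1% of Ptprb, Lama2, Skap1, F13a1, Mrc1, Trp63, Myh11, Pdzrn4 and Sult5a1, which mark other cells. The rule chose 4192 of 29220 barcodes that passed filters of 500 UMIs, 300 genes and 5% mitochondrial UMIs, which gave 2511 tamsulosin nuclei, 892 scopolamine nuclei and 789 control nuclei. The members were thus selected on measured counts of those genes, and the levels of those genes are given as a description.

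The study profiled lacrimal glands by droplet single-nucleus RNA sequencing with 10x Genomics 3' chemistry, in 3 libraries, 1 per condition. Tamsulosin nuclei came from dry eye mice, made by scopolamine together with dry stress and treated with tamsulosin, a blocker of alpha-1 adrenergic receptors. Scopolamine nuclei came from dry eye mice of the same model without that drug, and control nuclei from healthy glands. Scopolamine blocks muscarinic receptors, through which nerves drive tear secretion. The labels give no strain, sex, age, dose, number of animals or time, so whether a library pools animals is not known. Their protocol also mentions a sort for red fluorescent nuclei with no reporter line named, and whether it was applied to these libraries is not given. With 1 library per condition no difference below has a replicate check, and each interval covers counting error alone.

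Lacrimal ducts collect the fluid of the secretory acini and modify it on the way to the eye surface. Their epithelium is known for simple keratins and tight junctions, for ion transport that adjusts the fluid, and for secreted defence proteins. Cftr is an apical chloride channel, Slc12a2 the cotransporter that loads chloride across the basal side of secretory epithelium, and Dmbt1 a scavenger-receptor glycoprotein of mucosal surfaces. Ehf and Elf5 are ETS-family transcription factors of glandular epithelium.

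The label of duct nuclei held in part. Of the 7 markers of duct nuclei, Krt7, Krt19, Elf5, Ehf and Wfdc2 are in the rule, so their presence is no finding, and Ehf carried most of it: 77.98% of tamsulosin nuclei, 87.0% of scopolamine nuclei and 92.3% of control nuclei would have missed the rule without their Ehf UMIs. Ehf had a UMI in 96.2% of tamsulosin nuclei, 96.5% of scopolamine nuclei and 98.3% of control nuclei, and in 25.6% of tamsulosin macrophage-marked nuclei, 38.9% of scopolamine macrophage-marked nuclei and 62.3% of control macrophage-marked nuclei, which hold at least 3 UMIs and 0.1% of the macrophage genes F13a1 and Mrc1 together and should lack Ehf. Krt7 had one in 20.1% of tamsulosin nuclei, 10.7% of scopolamine nuclei and 6.97% of control nuclei, and Krt8 in 52.2% of tamsulosin nuclei, 41.4% of scopolamine nuclei and 24.6% of control nuclei. Wfdc2 had one in 27.96% of tamsulosin nuclei, 9.98% of scopolamine nuclei and 3.55% of control nuclei, and Elf5 in 27.9% of tamsulosin nuclei, 30.9% of scopolamine nuclei and 33.1% of control nuclei. Krt19, a defining duct keratin, was near absent, with a UMI in 1.35% of tamsulosin nuclei, 1.79% of scopolamine nuclei and 0.634% of control nuclei. Cftr, outside the rule, was also rare, at 5.93% of tamsulosin nuclei, 4.37% of scopolamine nuclei and 2.15% of control nuclei. Dmbt1, also outside it, had a UMI in 82.8% of tamsulosin nuclei, 33.2% of scopolamine nuclei and 44.99% of control nuclei, and in 60.7% of tamsulosin macrophage-marked nuclei, 26.9% of scopolamine macrophage-marked nuclei and 28.99% of control macrophage-marked nuclei. Median depth of these macrophage-marked nuclei was 2697 UMIs in the tamsulosin library, 2523 UMIs in the scopolamine library and 3095 UMIs in the control library. At an equal depth of 1000 UMIs per nucleus the Dmbt1 shares were 53.8% of tamsulosin nuclei, 18% of scopolamine nuclei and 24.2% of control nuclei, against 27.4% of tamsulosin macrophage-marked nuclei, 7.55% of scopolamine macrophage-marked nuclei and 11.6% of control macrophage-marked nuclei. The Ehf shares at that depth were 60.25% of tamsulosin nuclei, 63.55% of scopolamine nuclei and 66.0% of control nuclei. In macrophage-marked nuclei they were 10.3% in tamsulosin, 25.5% in scopolamine and 18.8% in control. Against the label, the muscarinic receptor gene Chrm3, a gene of secretory acini, stood at 3334 CPM in tamsulosin nuclei, 4034 CPM in scopolamine nuclei and 3789 CPM in control nuclei, and at 2205 CPM in tamsulosin nuclei, 3070 CPM in scopolamine nuclei and 3750 CPM in control nuclei in all other kept nuclei (CPM, the UMIs of a gene per 1000000 UMIs summed over the nuclei). The chosen barcodes are therefore called Ehf-keratin nuclei below.

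Upstream sequence is shown for Krt7 and Cftr, a keratin inside the rule and a duct channel outside it, to print where the short core AGGAAG bound by ETS factors such as Ehf occurs beside them. The windows are the 250 bases before the RefSeq start in GRCm38.p6, on the plus strand, at chr15:101412153-101412402 for Krt7 and chr6:18170437-18170686 for Cftr. Capitals mark AGGAAG, searched on both strands.
Krt7: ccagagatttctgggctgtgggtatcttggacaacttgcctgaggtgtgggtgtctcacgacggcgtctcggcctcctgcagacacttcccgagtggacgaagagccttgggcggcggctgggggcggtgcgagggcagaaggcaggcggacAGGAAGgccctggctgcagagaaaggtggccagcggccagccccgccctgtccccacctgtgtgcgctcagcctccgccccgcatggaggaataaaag
Cftr: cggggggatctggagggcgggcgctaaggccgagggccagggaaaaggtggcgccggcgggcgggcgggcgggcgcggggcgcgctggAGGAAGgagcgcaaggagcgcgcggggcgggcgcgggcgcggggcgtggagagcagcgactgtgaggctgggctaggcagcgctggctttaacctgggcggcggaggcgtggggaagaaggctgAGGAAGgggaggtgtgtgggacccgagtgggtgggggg
The core began 98 bases before the start of Krt7, and 162 and 38 bases before that of Cftr. It was present in 3 of the 8 rule genes with a window in the table and in 29.1% of 27025 windows in the table, so its presence does not set these promoters apart.

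Summed over Ehf-keratin nuclei, depth was 13621666 UMIs in the tamsulosin library, 4714072 UMIs in the scopolamine library and 4548836 UMIs in the control library, and the median nucleus held 4422 UMIs in the tamsulosin library, 3804 UMIs in the scopolamine library and 3683 UMIs in the control library. Pairs of libraries shared 22 to 35 barcode sequences, with none shared among Ehf-keratin nuclei. The tamsulosin library stood apart in mitochondrial RNA, whose median share of UMIs in these nuclei was 0.713% in tamsulosin, 0.151% in scopolamine and 0.102% in control. Mucl2, Scgb2b2 and Scgb1b2, products of acini, took a median share of 12.9% in tamsulosin, 9.095% in scopolamine and 3.46% in control in Ehf-keratin nuclei, and of 19.9% in tamsulosin, 10.98% in scopolamine and 3.44% in control in macrophage-marked nuclei, so RNA that came from other cells was present and differed between libraries. The level in macrophage-marked nuclei (117 tamsulosin nuclei, 108 scopolamine nuclei and 69 control nuclei) is therefore given beside the main results as the background. Where those nuclei make the RNA of a gene themselves, their level overstates that background. The part of such RNA in each result was not tested beyond that.

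Ehf-keratin nuclei made up 20.9% (95% Clopper-Pearson interval 20.2 to 21.6%) of tamsulosin barcodes, 8.91% (95% Clopper-Pearson interval 8.36 to 9.49%) of scopolamine barcodes and 10.97% (95% Clopper-Pearson interval 10.2 to 11.7%) of control barcodes. The tamsulosin share was the highest of the 3, and the scopolamine share lay below the control share. That lower scopolamine share turned round among deeper barcodes: with barcodes of at least 1600 UMIs the shares were 21.7% in the tamsulosin library, 15.2% in the scopolamine library and 11.8% in the control library. With every nucleus thinned to 1000 UMIs before the rule was applied, and 763 shallower scopolamine barcodes left out (0 in the other libraries), they were 4.33% in tamsulosin, 2.24% in scopolamine and 1.85% in control. Many nuclei sat at the limit of the rule: 213 tamsulosin nuclei, 167 scopolamine nuclei and 199 control nuclei had exactly 3 UMIs of the rule genes, and 90 tamsulosin nuclei, 235 scopolamine nuclei and 199 control nuclei missed it by 1 UMI. Just inside the limit of 0.1% lay 238 tamsulosin nuclei, 133 scopolamine nuclei and 117 control nuclei, and just outside it 287 tamsulosin nuclei, 113 scopolamine nuclei and 141 control nuclei. Since the rule reads expression, a share can move with the RNA of these genes per nucleus as well as with the number of nuclei, and these cannot be told apart.

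Ehf-keratin nuclei were a mixture, and one component held more of some duct-associated transcripts, though not of all. Leading genes, those with the largest excess over all other kept nuclei in each library, included the coagulation factor gene F5, the sulfotransferase gene Chst9, the fucosyltransferase gene Fut9, the kinase gene Dclk1, the transcription factor gene Tfcp2l1, Car12 (a membrane carbonic anhydrase), Dmbt1 and Slc12a2. Chst9 had 1387 CPM in tamsulosin nuclei, 865 CPM in scopolamine nuclei and 613 CPM in control nuclei, against 288 CPM in tamsulosin nuclei, 220.2 CPM in scopolamine nuclei and 175 CPM in control nuclei among all other kept nuclei. Tfcp2l1 had 741 CPM in tamsulosin nuclei, 326 CPM in scopolamine nuclei and 258 CPM in control nuclei, and F5 had 733 CPM in tamsulosin nuclei, 179.9 CPM in scopolamine nuclei and 140.5 CPM in control nuclei. These excesses come from the counts that chose the nuclei and are a description. A nucleus was placed in the Dmbt1-Slc12a2 group when Dmbt1, Slc12a2 and Cftr together had at least 3 UMIs and 0.15% of its UMIs, a split chosen after the data were seen. Slc12a2 is also counted among the regulators and channels of acini.

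Dmbt1-Slc12a2 nuclei numbered 1527 tamsulosin nuclei, 183 scopolamine nuclei and 136 control nuclei, which is 60.8% of tamsulosin Ehf-keratin nuclei, 20.5% of scopolamine Ehf-keratin nuclei and 17.2% of control Ehf-keratin nuclei. Of all kept barcodes they were 12.7% (95% Clopper-Pearson interval 12.1 to 13.3%) of tamsulosin barcodes, 1.83% (95% Clopper-Pearson interval 1.57 to 2.11%) of scopolamine barcodes and 1.89% (95% Clopper-Pearson interval 1.59 to 2.23%) of control barcodes. The tamsulosin share was several times both others, and the scopolamine and control intervals overlapped. They did not among deeper barcodes. With at least 1600 UMIs the scopolamine share was 3.36% (95% Clopper-Pearson interval 2.89 to 3.88%). The control share was then 2.09% (95% Clopper-Pearson interval 1.75 to 2.47%) and the tamsulosin share 13.2%. Near the limit, between 0.1% and 0.2%, lay 533 tamsulosin nuclei, 66 scopolamine nuclei and 71 control nuclei. The remaining nuclei, low in those 3 genes, were 8.19% of tamsulosin barcodes, 7.09% of scopolamine barcodes and 9.08% of control barcodes, so the 3 libraries differed less in them.

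**Figure D1:**
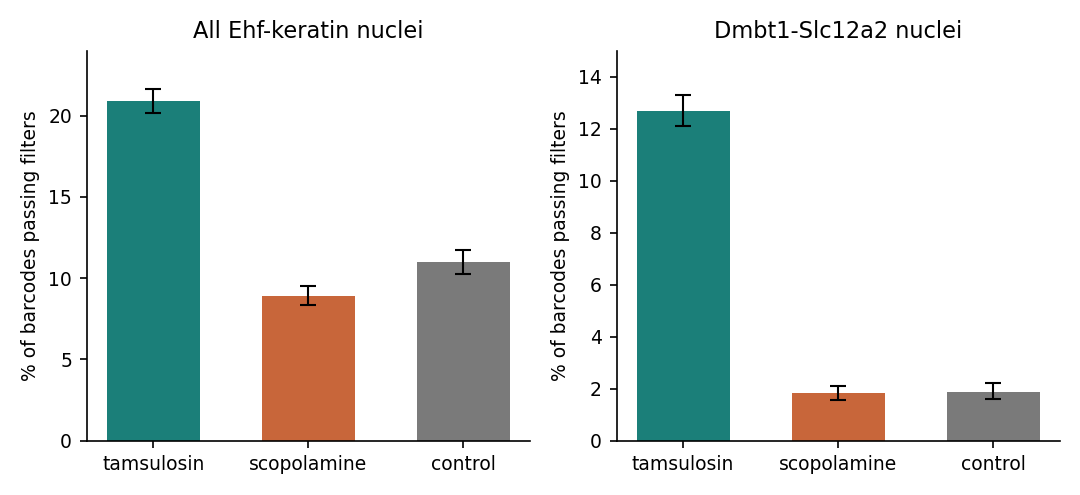
Shares of kept barcodes (percent, vertical axis) that were Ehf-keratin nuclei (left) and Dmbt1-Slc12a2 nuclei (right) in the tamsulosin, scopolamine and control libraries; error bars are 95% Clopper-Pearson intervals from counting. The tamsulosin bars stand at 20.9% and 12.7%, above both other libraries.

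Levels in the split nuclei and the low nuclei are given for genes that did not set the split. Krt7 had 67.8 CPM in Dmbt1-Slc12a2 nuclei and 27.5 CPM in the low nuclei of the tamsulosin library, 97.5 and 13.6 CPM in those of the scopolamine library, and 76.7 and 8.496 CPM in those of the control library. Wfdc2, a secreted protease-inhibitor-like protein, had 116 CPM in Dmbt1-Slc12a2 nuclei and 44.4 CPM in the low nuclei of the tamsulosin library, 93.1 and 18.1 CPM in those of the scopolamine library, and 20.5 and 7.43 CPM in those of the control library. Ehf had 1035 CPM in Dmbt1-Slc12a2 nuclei and 918 CPM in the low nuclei of the tamsulosin library, 1086 and 943 CPM in those of the scopolamine library, and 1042 and 930.3 CPM in those of the control library. All 3 are genes of the rule, which most nuclei passed through Ehf, so these levels are a description. Elf5, another gene of the rule, was not higher in Dmbt1-Slc12a2 nuclei throughout. It had 61.3 CPM there and 78.1 CPM in the low nuclei of the tamsulosin library. The values were 79.8 and 76.3 CPM in the scopolamine library, and 66.5 and 77.0 CPM in the control library. Fcgbp, a mucus protein that binds the Fc part of immunoglobulin G, had 1216 CPM in Dmbt1-Slc12a2 nuclei and 273 CPM in the low nuclei of the tamsulosin library, 524 and 55.98 CPM in those of the scopolamine library, and 248 and 30.5 CPM in those of the control library. Lactoferrin (Ltf), an iron-binding antimicrobial protein of tears, had 11018 CPM in Dmbt1-Slc12a2 nuclei and 2668 CPM in the low nuclei of the tamsulosin library, 3571 and 546 CPM in those of the scopolamine library, and 1025 and 138 CPM in those of the control library. The sodium pump subunit gene Atp1b1 had 259.6 CPM in Dmbt1-Slc12a2 nuclei and 77.4 CPM in the low nuclei of the tamsulosin library, 137 and 28.7 CPM in those of the scopolamine library, and 83.1 and 10.3 CPM in those of the control library. Kit, a receptor tyrosine kinase, had 264 CPM in Dmbt1-Slc12a2 nuclei and 136 CPM in the low nuclei of the tamsulosin library, 207 and 61.4 CPM in those of the scopolamine library, and 190.5 and 49.4 CPM in those of the control library. The low nuclei had more of the acinar transcription factor gene Bhlha15, with 20.4 CPM in Dmbt1-Slc12a2 nuclei and 49.9 CPM in the low nuclei of the tamsulosin library, 23.6 and 45.6 CPM in those of the scopolamine library, and 15.3 and 49.4 CPM in those of the control library. Pigr, which carries IgA across the epithelium, had 128 CPM in Dmbt1-Slc12a2 nuclei and 370.1 CPM in the low nuclei of the tamsulosin library, 166 and 563 CPM in those of the scopolamine library, and 95.9 and 203 CPM in those of the control library. Pigr is counted among the duct markers outside the rule, and was thus higher in the low nuclei. Chrm3 did not separate them, at 3308 CPM in Dmbt1-Slc12a2 nuclei and 3371 CPM in the low nuclei of the tamsulosin library, 3881 and 4060 CPM in those of the scopolamine library, and 4540 and 3633 CPM in those of the control library.

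**Figure D2:**
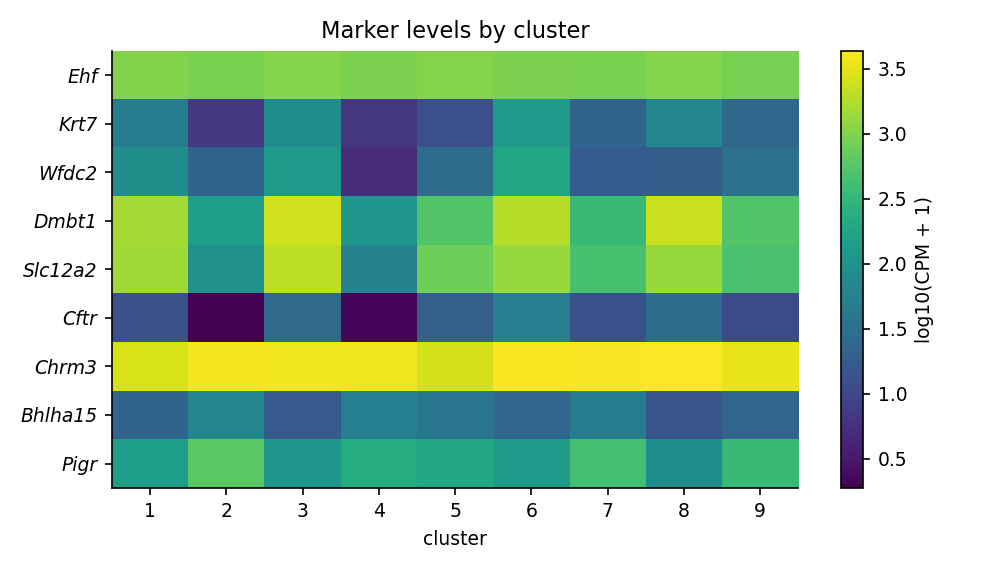
Level of 9 marker genes (rows) in each of the 9 clusters of Ehf-keratin nuclei (columns, numbered by size), colour giving log10 of CPM plus 1. Ehf is even across clusters, from 885 to 1065 CPM, while Dmbt1 runs from 109.8 CPM in cluster 4 to 2449 CPM in cluster 3.

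Leiden clustering of the Ehf-keratin nuclei gave 9 clusters, most of them from 1 or 2 libraries, so that a cluster may be a library rather than a kind of cell. None of the 7 duct markers was among the 10 leading genes of any cluster, and no cluster is named. Clusters 1 and 3 were nearly all tamsulosin. Cluster 1 (895 tamsulosin, 10 scopolamine and 0 control nuclei) had the hemoglobin genes Hbb-bs, Hba-a1 and Hba-a2 first among its leading genes, with Hbb-bs at 259 CPM in its tamsulosin nuclei (293 CPM in those of cluster 5). The immunoglobulin gene Igha was also among its 10 leading genes. After these came the opsin gene Rgr and secretoglobins, with Scgb1b7 at 826 CPM. Cluster 3 (756 tamsulosin, 13 scopolamine and 0 control nuclei) was led by Fcgbp, Ltf and Cp, with Cp, the copper-carrying ferroxidase ceruloplasmin, at 547 CPM against 104 CPM in the other Ehf-keratin nuclei. Dmbt1-Slc12a2 nuclei were 72.6% of cluster 1 and 86.5% of cluster 3. In control glands most Dmbt1-Slc12a2 nuclei were in cluster 8 (0 tamsulosin, 1 scopolamine and 176 control nuclei), 67.2% Dmbt1-Slc12a2 nuclei, led by the mitochondrial coactivator gene Ppargc1a at 149.8 CPM, by Kif26b, and by the growth factor gene Tgfb2 at 55.3 CPM.

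The low nuclei divided the same way by library. Cluster 4 (7 tamsulosin, 4 scopolamine and 569 control nuclei) was led by Pnliprp1, a pancreatic-lipase-related protein, at 1509 CPM, by Aldh1l2, a mitochondrial folate enzyme, and by Phyh, which breaks down phytanic acid. Cluster 2 (363 tamsulosin, 473 scopolamine and 7 control nuclei) was led by Nrg4, a ligand of ERBB receptors, at 143 CPM, and by the adhesion molecule gene Chl1 at 576 CPM. In those 2 clusters Cftr stood at 1.15 CPM (cluster 4) and 0.886 CPM (cluster 2), and Dmbt1-Slc12a2 nuclei were 2.07% and 4.51% of them.

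**Figure D3:**
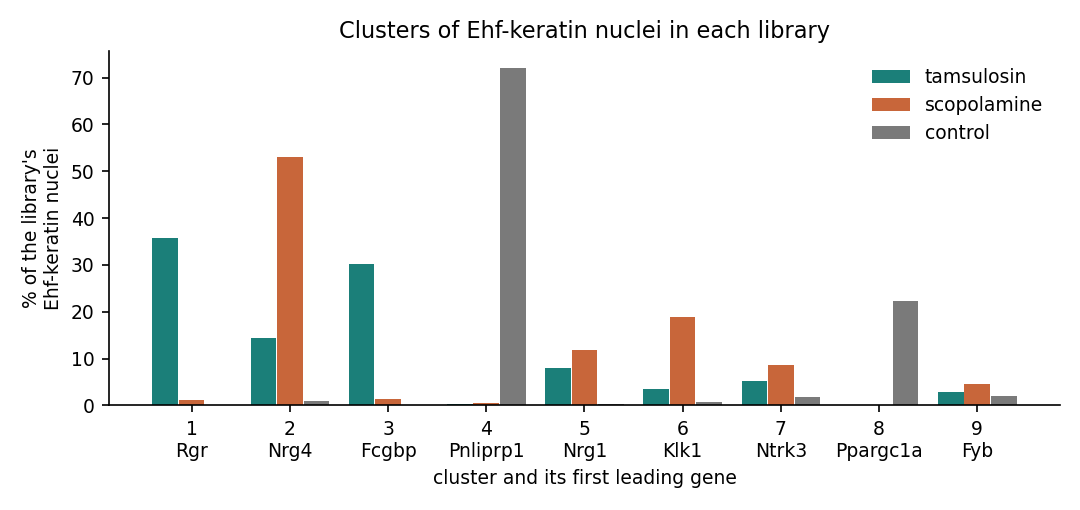
Share of each library's Ehf-keratin nuclei (percent, vertical axis) in the 9 clusters, labelled by number and first leading gene, with tamsulosin, scopolamine and control bars side by side. Control nuclei sit mostly in cluster 4 (72.1%), scopolamine nuclei in cluster 2 (53.03%) and tamsulosin nuclei in clusters 1 and 3 (35.6% and 30.1%).

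Clusters 5 and 6 drew on both dry eye libraries. Cluster 6 (89 tamsulosin, 169 scopolamine and 6 control nuclei) had the most Cftr of any cluster, 50.03 CPM, and the most Krt7, 125 CPM. It was led by Klk1 (tissue kallikrein, in rodents a product of salivary granular ducts), Kcnj16 (an inwardly rectifying potassium channel), Slit2 (a secreted guidance cue) and Atp6v0d2 (a subunit of the proton-pumping V-ATPase). Kcnj16 had 471 CPM in tamsulosin nuclei and 259 CPM in scopolamine nuclei of this cluster, and Atp6v0d2 had 153 CPM in tamsulosin nuclei and 79.05 CPM in scopolamine nuclei. Chst9 was higher here than in any other cluster, with 6140 CPM in tamsulosin nuclei and 4782 CPM in scopolamine nuclei. The 6 control nuclei of this cluster, with 53883 UMIs in all, stood above both dry eye libraries in several of these genes. They had 10411 CPM of Chst9, 668 CPM of Kcnj16, 909 CPM of Slit2 and 390 CPM of Atp6v0d2. Klk1 had 225 UMIs in the 89 tamsulosin nuclei (491 CPM) and 0 UMIs in the 169 scopolamine nuclei, which is at least 99.4-fold higher when 3 counts are taken as the floor of the scopolamine nuclei. Macrophage-marked tamsulosin nuclei had 2.61 CPM of Klk1. Bpifa2, a secreted protein of salivary glands, was highest in the tamsulosin library in both Ehf-keratin and macrophage-marked nuclei. It had 339 CPM in tamsulosin Ehf-keratin nuclei and 382 CPM in tamsulosin macrophage-marked nuclei. Control nuclei held less of it, 28.8 CPM in Ehf-keratin nuclei and 20.79 CPM in macrophage-marked nuclei. Both kinds of scopolamine nuclei had 0 UMIs. A list of 12 salivary-type markers includes Klk1 and the acinar gene Bhlha15 but not Bpifa2. Its sum in Ehf-keratin nuclei was 193 CPM in tamsulosin, 299.7 CPM in scopolamine and 329 CPM in control. Of the 12 genes, 3 had no UMI in tamsulosin, 9 in scopolamine and 6 in control, so the sums rest on different genes. At a Leiden resolution of 1.0, a cluster of 14 tamsulosin, 0 scopolamine and 2 control nuclei had Smr3a and Bpifa2 among its 10 leading genes.

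Cluster 5 (202 tamsulosin, 106 scopolamine and 2 control nuclei) was led by Nrg1, a growth factor that activates ERBB receptors, by the chaperone clusterin (Clu) and by Sox10, a transcription factor of gland epithelium. Nrg1 had 235 CPM in tamsulosin nuclei and 222 CPM in scopolamine nuclei of the cluster, and Sox10 had 81.8 CPM in tamsulosin nuclei and 61.4 CPM in scopolamine nuclei. Elf5 was higher there than in the rest, at 167 CPM in tamsulosin nuclei and 143 CPM in scopolamine nuclei. Krt5 and Krt14, the basal keratins, had 0 CPM in tamsulosin nuclei and 0 CPM in scopolamine nuclei for Krt5 and 1.54 CPM in tamsulosin nuclei and 6.82 CPM in scopolamine nuclei for Krt14, where 3 counts correspond to 4.63 CPM in tamsulosin nuclei and 10.2 CPM in scopolamine nuclei. Clusters 7 (129 tamsulosin, 76 scopolamine and 14 control nuclei) and 9 (70 tamsulosin, 40 scopolamine and 15 control nuclei) were led by genes of other cells. Cluster 7 had Ebf1 and Adamtsl1, and 48.9% of its nuclei were among the highest doublet scores of their library. Cluster 9 had the immune genes Fyb, Zeb2 and Ptprc, with 40.8% among the highest doublet scores. Leaving both clusters out kept every share and count of Ehf-keratin nuclei below within 1.5 times its value.

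Scopolamine with dry stress was set against control in the summed Ehf-keratin nuclei, which in scopolamine lay mostly in cluster 2 and in control mostly in cluster 4. Ratios were taken as log2 of CPM plus 5, and centred on the median gene, which moved by -0.142 before centring. Of 6118 genes with a mean of at least 20 CPM, 170 (2.78%) passed 2-fold on the higher side and 58 (0.948%) on the lower side. A call here means past 2-fold, since 1 library per group allows no p-value.

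Mucosal defence genes lay on both sides. Of 9 measured mucosal defence genes, 5 were past 2-fold higher and 2 past 2-fold lower, with a median relative log2 ratio of 1.16 (0 over all tested genes). Ceruloplasmin (Cp) had 114 CPM in scopolamine nuclei, against 22.9 CPM in control nuclei, 5.001-fold (95% interval 4.05 to 6.23) higher. Macrophage-marked nuclei held more Cp than that, 252 CPM in scopolamine nuclei and 184 CPM in control nuclei. Other nuclei did not share that level: Cp had 18.7 CPM in scopolamine nuclei of cluster 2 and 8.23 CPM in control nuclei of cluster 4. Lactoferrin (Ltf) had 981 CPM in scopolamine nuclei, against 291 CPM in control nuclei, 3.37-fold (95% interval 3.17 to 3.59) higher, beside 342 CPM and 211 CPM in macrophage-marked nuclei of those libraries. Pigr had 506 CPM in scopolamine nuclei, against 184 CPM in control nuclei, 2.74-fold (95% interval 2.53 to 2.97) higher, and macrophage-marked nuclei had 269.8 CPM in scopolamine and 83.1 CPM in control. Sftpd, the collectin surfactant protein D, and Wfdc2 completed the higher members, and Wfdc2 was used by the rule, so its difference is a description. Lactoperoxidase (Lpo) was on the lower side, with 152 CPM in scopolamine nuclei, against 537 CPM in control nuclei, 3.53-fold (95% interval 3.24 to 3.84) lower, and macrophage-marked nuclei showed 63.1 CPM and 326 CPM. Of 17 measured genes of iron and oxidative defence 2 were past 2-fold higher (Cp and Fth1) and 1 lower, with a median relative log2 ratio of 0.01. The transferrin receptor gene Tfrc, which takes up iron, had 238 CPM in scopolamine nuclei, against 700.0 CPM in control nuclei, 2.95-fold (95% interval 2.75 to 3.16) lower, and ferritin heavy chain (Fth1), which stores it, had 25.2 CPM in scopolamine nuclei, against 5.94 CPM in control nuclei, 4.25-fold (95% interval 2.78 to 6.72) higher, while macrophage-marked nuclei had 37.3 CPM in scopolamine and 3.46 CPM in control.

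Among the other genes that stood above the rest of the gland, Sult1e1, which sulfates and inactivates estrogen, had 79.1 CPM in scopolamine nuclei, against 18.5 CPM in control nuclei, 4.29-fold (95% interval 3.37 to 5.496) higher, beside 0 UMIs in control macrophage-marked nuclei. Nupr1, a stress-induced nuclear protein, had 525 CPM in scopolamine nuclei, against 211 CPM in control nuclei, 2.49-fold (95% interval 2.31 to 2.69) higher, and macrophage-marked nuclei had 164 CPM in scopolamine and 76.2 CPM in control. Hes1, a repressor activated by Notch, had 106 CPM in scopolamine nuclei, against 41.99 CPM in control nuclei, 2.52-fold (95% interval 2.12 to 2.99) higher, and macrophage-marked nuclei had 17.2 CPM in scopolamine and 10.4 CPM in control. Fgfr2, the receptor through which FGF10 builds the gland, had 348 CPM in scopolamine nuclei, against 155 CPM in control nuclei, 2.25-fold (95% interval 2.06 to 2.46) higher, although macrophage-marked nuclei followed at 224 CPM and 118 CPM. Slc16a11, Prickle2, Alox12, Ntan1, Rad51b and Sorbs2os were the other genes of this rank, from 1.17 to 2.19 on the relative log2 scale. Of the genes of this rank on the lower side none reached 2-fold, and the first was Dmbt1 with 309 CPM in scopolamine nuclei, against 557 CPM in control nuclei, 1.802-fold (95% interval 1.69 to 1.92) lower. Of 26 junction and polarity genes 3 were past 2-fold higher (the claudins Cldn3 and Cldn7 and the adhesion molecule Epcam) and 0 lower. Of 18 genes of the unfolded protein and amino acid response 0 were higher and 2 lower. Those were asparagine synthetase (Asns), with 9.33 CPM in scopolamine nuclei, against 49.5 CPM in control nuclei, and Aldh1l2, with 14.6 CPM in scopolamine nuclei, against 83.3 CPM in control nuclei.

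Tamsulosin treatment was set against scopolamine without it, a comparison that shares the scopolamine library with the first. In the summed Ehf-keratin nuclei 360 of 6118 genes (5.88%) passed 2-fold on the higher side and 104 (1.7%) on the lower side. Duct-associated genes stood on the higher side: 7 of 14 measured duct markers outside the rule passed 2-fold higher and 0 passed lower, with a median relative log2 ratio of 1.07. Dmbt1 had 1524 CPM in tamsulosin nuclei, against 309 CPM in scopolamine nuclei, 4.93-fold (95% interval 4.67 to 5.199) higher, and macrophage-marked nuclei had 332 CPM in tamsulosin and 169 CPM in scopolamine. Slc12a2 had 1286 CPM in tamsulosin nuclei, against 339 CPM in scopolamine nuclei, 3.799-fold (95% interval 3.61 to 4.001) higher, and macrophage-marked nuclei had 274 CPM in tamsulosin and 132 CPM in scopolamine. Summed over the 24 duct markers outside the rule, macrophage-marked nuclei had 3660 CPM in tamsulosin and 1739 CPM in scopolamine, beside 13244 CPM and 3990 CPM in Ehf-keratin nuclei of those libraries. Lactoferrin (Ltf) is among the 24 and among the 7 past 2-fold, and is also counted with the secretory transcripts of acini. Its levels, given in the next paragraph, made up most of both tamsulosin sums. Of 17 ion and water transport genes 6 were higher, among them Slc12a2, the sodium pump beta subunit genes Atp1b1 and Atp1b3, Car12 and the chloride channel gene Ano1, and 0 lower. Of 10 conjugation and retinoid enzymes 9 were higher, among them the P450 gene Cyp2f2 with 3657 CPM in tamsulosin nuclei, against 581 CPM in scopolamine nuclei, 6.29-fold (95% interval 6.06 to 6.54) higher, beside 891 CPM and 224 CPM in macrophage-marked nuclei. Cyp2a5, with 472 CPM in tamsulosin nuclei, against 67.2 CPM in scopolamine nuclei, may share reads with its near-identical neighbour Cyp2a4.

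Of 9 measured mucosal defence genes 6 were past 2-fold higher, the rule gene Wfdc2 among them, and 0 lower. Ltf had 7651 CPM in tamsulosin nuclei, against 981 CPM in scopolamine nuclei, 7.802-fold (95% interval 7.58 to 8.04) higher, and macrophage-marked nuclei had 2282 CPM and 342 CPM, a gap of the same direction. Wfdc18, a small secreted protein with a whey acidic protein domain, led the genes of this rank, with 4364 CPM in tamsulosin nuclei, against 429.6 CPM in scopolamine nuclei, and nearly as wide a gap in macrophage-marked nuclei at 3056 CPM and 347 CPM. Tmem176a and Tmem176b, neighbouring membrane protein genes, had 293 CPM in tamsulosin nuclei, against 28.9 CPM in scopolamine nuclei for Tmem176a and 254 CPM in tamsulosin nuclei, against 31.2 CPM in scopolamine nuclei for Tmem176b, and for Tmem176a macrophage-marked nuclei had 123 CPM in tamsulosin and 20.1 CPM in scopolamine. Fcgbp had 836 CPM in tamsulosin nuclei, against 123 CPM in scopolamine nuclei, 6.78-fold (95% interval 6.24 to 7.39) higher, and macrophage-marked nuclei had 196 CPM in tamsulosin and 34.4 CPM in scopolamine. The tetraspanin gene Cd81, the chemokine gene Ccl9, Sftpd and F5 were the other higher genes of this rank. Named genes on the lower side missed 2-fold: the P450 gene Cyp2b10 came first with 20.6 CPM in tamsulosin nuclei, against 50.5 CPM in scopolamine nuclei, followed by vinculin (Vcl) with 74.9 CPM in tamsulosin nuclei, against 146 CPM in scopolamine nuclei. List members past 2-fold lower were the receptor genes Erbb4, with 700.4 CPM in tamsulosin nuclei, against 1846 CPM in scopolamine nuclei, and Prlr, with 64.3 CPM in tamsulosin nuclei, against 179.7 CPM in scopolamine nuclei, the ligand gene Nrg4, and the transcription factor genes Esrrg and Etv1. For Erbb4 macrophage-marked nuclei had 329 CPM in tamsulosin and 895 CPM in scopolamine, a gap of the same direction. Pigr stood at the limit of 2-fold lower, with 225 CPM in tamsulosin nuclei, against 506 CPM in scopolamine nuclei.

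The same genes were compared within Dmbt1-Slc12a2 nuclei, which made up 60.8% of tamsulosin and 20.5% of scopolamine Ehf-keratin nuclei. Dmbt1, Slc12a2 and Cftr chose them, so levels of these genes, and of genes that go with them from nucleus to nucleus, are brought closer between libraries by the split itself, and the values are a description. The transcription factor gene Barx2, with 500.2 CPM in tamsulosin nuclei, against 186 CPM in scopolamine nuclei over all Ehf-keratin nuclei, had 644 CPM in tamsulosin nuclei, against 736 CPM in scopolamine nuclei inside this group. Car12 had 503 CPM in tamsulosin nuclei, against 207 CPM in scopolamine nuclei over all and 644 CPM in tamsulosin nuclei, against 716 CPM in scopolamine nuclei inside it. Nrg2, an ERBB ligand gene, had 685 CPM in tamsulosin nuclei, against 254 CPM in scopolamine nuclei over all and 862 CPM in tamsulosin nuclei, against 875 CPM in scopolamine nuclei inside it. Esrrg, on the lower side, had 699 CPM in tamsulosin nuclei, against 1973 CPM in scopolamine nuclei over all and 246 CPM in tamsulosin nuclei, against 687 CPM in scopolamine nuclei inside it. Of 11 conjugation enzymes measured within the group 2 passed 2-fold higher (Cyp2f2 and Cyp2a5) and 0 lower, against 9 of 10 over all Ehf-keratin nuclei. Of 16 duct markers outside the rule measured there 3 passed 2-fold higher (Epcam, Atp1b1 and Ltf) and 0 lower. Over all Ehf-keratin nuclei that was 7 of 14. Their median relative log2 ratio was 0.33 within the group and 1.07 over all. The duct markers include Dmbt1, Slc12a2 and Cftr, which set the split.

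Within Dmbt1-Slc12a2 nuclei 189 of 6095 genes (3.1%) were past 2-fold higher in tamsulosin than in scopolamine and 40 (0.656%) past it on the lower side. Clusters 1 and 3 held 649 and 656 of the 1527 tamsulosin nuclei of this kind, cluster 6 held 118 of the 183 scopolamine nuclei, and cluster 8 held 119 of the 136 control nuclei. Ltf had 11018 CPM in tamsulosin nuclei, against 3571 CPM in scopolamine nuclei, 3.09-fold (95% interval 2.96 to 3.21) higher. Wfdc18 had 5688 CPM in tamsulosin nuclei, against 989.8 CPM in scopolamine nuclei, and Tmem176a had 419 CPM in tamsulosin nuclei, against 111 CPM in scopolamine nuclei, 3.78-fold (95% interval 3.01 to 4.82) higher. For Ltf, Wfdc18 and Tmem176a the gap in macrophage-marked nuclei, given above, had the same direction and was wider as a ratio. The part of RNA from other cells in these differences was not tested. Atp1b1 had 259.6 CPM in tamsulosin nuclei, against 137 CPM in scopolamine nuclei, 1.89-fold (95% interval 1.53 to 2.35) higher. The ER chaperone gene Hspa5 had 283 CPM in tamsulosin nuclei, against 130.0 CPM in scopolamine nuclei, 2.18-fold (95% interval 1.76 to 2.73) higher, beside 217 CPM and 155 CPM in macrophage-marked nuclei of those libraries. On the lower side were genes that led cluster 6: Kcnj16 had 41.2 CPM in tamsulosin nuclei, against 109 CPM in scopolamine nuclei, Slit2 had 22.5 CPM in tamsulosin nuclei, against 76.8 CPM in scopolamine nuclei and Atp6v0d2 had 16.6 CPM in tamsulosin nuclei, against 56.1 CPM in scopolamine nuclei. Within cluster 6 itself Kcnj16 was higher in tamsulosin, with 471 CPM in tamsulosin nuclei and 259 CPM in scopolamine nuclei, a ratio of 1.82 (95% interval 1.48 to 2.25). Dgki, a diacylglycerol kinase gene, had 11.2 CPM in tamsulosin nuclei, against 78.3 CPM in scopolamine nuclei in the group and 91.6 CPM in tamsulosin nuclei and 83.99 CPM in scopolamine nuclei in cluster 6, a ratio of 1.09 (95% interval 0.708 to 1.67).

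Clusters 2, 5 and 6 held enough nuclei of both dry eye libraries to compare them cluster by cluster. In cluster 6, 238 of 6007 genes (3.96%) passed 2-fold higher in tamsulosin and 84 (1.4%) lower. Ltf there had 5631 CPM in tamsulosin nuclei and 3531 CPM in scopolamine nuclei, a ratio of 1.59 (95% interval 1.51 to 1.69), and Dmbt1 had 2684 CPM in tamsulosin nuclei and 1416 CPM in scopolamine nuclei, a ratio of 1.895 (95% interval 1.74 to 2.07). Both genes were also higher in tamsulosin in macrophage-marked nuclei, as given above. Slc12a2 had 1337 CPM in tamsulosin nuclei and 1331 CPM in scopolamine nuclei, a ratio of 1.005 (95% interval 0.903 to 1.118), and Sult1e1 had 399 CPM in tamsulosin nuclei and 382 CPM in scopolamine nuclei, a ratio of 1.04 (95% interval 0.856 to 1.27). Those last intervals span 1. Ccl9 had 268 CPM in tamsulosin nuclei and 62.6 CPM in scopolamine nuclei, and Dusp1, an early-response phosphatase gene, had 129 CPM in tamsulosin nuclei and 21.4 CPM in scopolamine nuclei, a ratio of 6.01 (95% interval 3.26 to 11.9).

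In cluster 5 the counts were 274 genes higher (4.81%) and 95 lower (1.67%) of 5695. Ltf did not differ beyond counting error there, with 2399 CPM in tamsulosin nuclei and 2591 CPM in scopolamine nuclei, a ratio of 0.926 (95% interval 0.848 to 1.01). Tmem176a had 162 CPM in tamsulosin nuclei and 51.1 CPM in scopolamine nuclei, a ratio of 3.17 (95% interval 1.84 to 5.86), while its neighbour Tmem176b had 139 CPM in tamsulosin nuclei and 136 CPM in scopolamine nuclei, a ratio of 1.02 (95% interval 0.695 to 1.52). Clusterin had 64.8 CPM in tamsulosin nuclei and 160.2 CPM in scopolamine nuclei, a ratio of 0.405 (95% interval 0.2604 to 0.627). In cluster 2, 129 of 5674 genes (2.27%) were higher and 1 (0.0176%) was lower. The widest gap among the genes compared there was in Bpifa2, with 709 CPM (1398 UMIs) in tamsulosin nuclei and 0 UMIs in scopolamine nuclei. Next came Ltf, with 1702 CPM in tamsulosin nuclei and 120.3 CPM in scopolamine nuclei, Cyp2f2, with 769.7 CPM in tamsulosin nuclei and 66.5 CPM in scopolamine nuclei, and Dmbt1, with 294 CPM in tamsulosin nuclei and 24.3 CPM in scopolamine nuclei. The levels of Ltf, Cyp2f2 and Dmbt1 in cluster 2 lay below those in macrophage-marked nuclei of the same library. Nupr1 was above macrophage-marked nuclei in both libraries and lower in tamsulosin, with 402 CPM in tamsulosin nuclei and 695 CPM in scopolamine nuclei, a ratio of 0.579 (95% interval 0.532 to 0.6301).

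Against control, scopolamine Dmbt1-Slc12a2 nuclei had 277 of 6095 genes (4.54%) past 2-fold higher and 140 (2.3%) past it on the lower side, from 183 scopolamine and 136 control nuclei. Cp had 360.5 CPM in scopolamine nuclei, against 63.9 CPM in control nuclei, 5.64-fold (95% interval 4.14 to 7.81) higher. In the control library it lay below the macrophage-marked level of 184 CPM and above the 8.23 CPM of control nuclei in cluster 4. Sult1e1 had 352 CPM in scopolamine nuclei, against 83.1 CPM in control nuclei, 4.23-fold (95% interval 3.204 to 5.66) higher. Ltf had 3571 CPM in scopolamine nuclei, against 1025 CPM in control nuclei, 3.48-fold (95% interval 3.21 to 3.78) higher. Fth1 had 63.5 CPM in scopolamine nuclei, against 7.67 CPM in control nuclei, 8.28-fold (95% interval 3.51 to 23.8) higher. Cftr, one of the genes of the split, had 48.8 CPM in scopolamine nuclei, against 24.3 CPM in control nuclei. H2-T23, an antigen-presentation gene, had 62.05 CPM in scopolamine nuclei, against 11.5 CPM in control nuclei, and Tshr, the thyrotropin receptor gene, had 62.05 CPM in scopolamine nuclei, against 7.67 CPM in control nuclei. On the lower side were the iron-responsive enzyme gene Aco1, with 20.7 CPM in scopolamine nuclei, against 71.6 CPM in control nuclei, 3.46-fold (95% interval 1.902 to 6.73) lower, and Igbp1. Irs2, an insulin receptor substrate, had 28.1 CPM in scopolamine nuclei, against 61.4 CPM in control nuclei, and its relative log2 ratio of -0.86 stayed short of 2-fold.

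The low nuclei had differences of their own. In scopolamine against control, 225 of 6061 genes (3.71%) were past 2-fold higher and 63 (1.04%) past it on the lower side. Pigr had 563 CPM in scopolamine nuclei, against 203 CPM in control nuclei, 2.78-fold (95% interval 2.56 to 3.02) higher, and Nupr1 had 568 CPM in scopolamine nuclei, against 229 CPM in control nuclei, 2.48-fold (95% interval 2.29 to 2.69) higher. Fgfr2 had 276 CPM in scopolamine nuclei, against 113 CPM in control nuclei, 2.45-fold (95% interval 2.19 to 2.75) higher. Pnliprp1 had 46.1 CPM in scopolamine nuclei, against 1446 CPM in control nuclei, a wider gap than any of these, and macrophage-marked nuclei had 22.96 CPM in scopolamine and 1019 CPM in control. In tamsulosin against scopolamine, 200 genes (3.3%) were past 2-fold higher and 2 (0.033%) past it on the lower side. Erbb4 and Esrrg, past 2-fold lower over all Ehf-keratin nuclei, had 1209 CPM in tamsulosin nuclei, against 2048 CPM in scopolamine nuclei for Erbb4 and 1370 CPM in tamsulosin nuclei, against 2189 CPM in scopolamine nuclei for Esrrg.

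**Figure D4:**
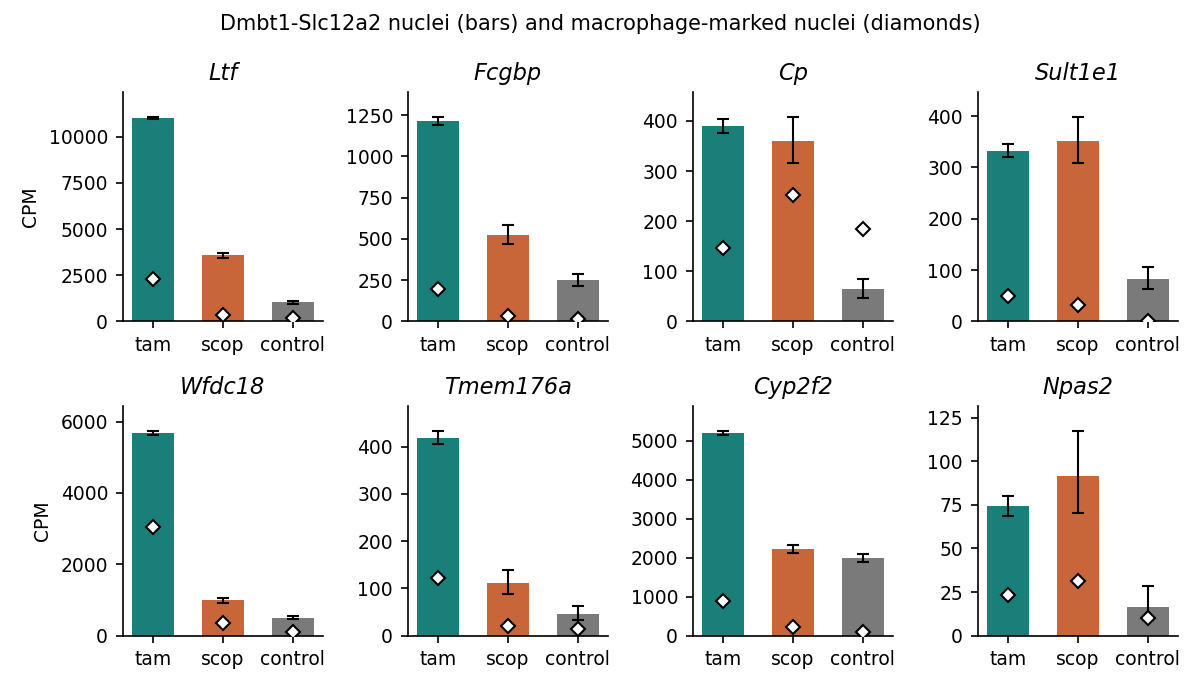
CPM (vertical axis, one scale per gene) of 8 genes in Dmbt1-Slc12a2 nuclei of the tamsulosin (tam), scopolamine (scop) and control libraries, with 95% Poisson intervals as error bars, and in macrophage-marked nuclei of the same library as white diamonds. Ltf stands at 11018 CPM in tamsulosin nuclei, and Cp and Sult1e1 are alike in tamsulosin and scopolamine nuclei and lower in control nuclei.

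Clock genes were split between scopolamine and control. In the circadian clock, Arntl pairs with Clock or Npas2 to activate E-box genes, among them the Per genes, Nr1d2, Tef and Dbp, whose products feed back on it or pass the rhythm on. Of 10 measured clock genes 2 were past 2-fold higher in scopolamine and 3 past 2-fold lower, with a median relative log2 ratio of -0.05. Over all tested genes 2.78% were past 2-fold higher and 0.948% lower. The activators were higher: Arntl had 146 CPM in scopolamine nuclei, against 44.2 CPM in control nuclei, 3.31-fold (95% interval 2.82 to 3.89) higher, and Npas2 had 50.1 CPM in scopolamine nuclei, against 5.94 CPM in control nuclei, 8.43-fold (95% interval 5.65 to 13.1) higher. Output and feedback genes were lower: Nr1d2 had 79.97 CPM in scopolamine nuclei, against 234 CPM in control nuclei, 2.93-fold (95% interval 2.601 to 3.301) lower, Tef had 95.5 CPM in scopolamine nuclei, against 272 CPM in control nuclei, 2.85-fold (95% interval 2.55 to 3.18) lower, and Per3 had 32.7 CPM in scopolamine nuclei, against 81.8 CPM in control nuclei, 2.503-fold (95% interval 2.07 to 3.04) lower. Clock itself had 309.7 CPM in scopolamine nuclei, against 242 CPM in control nuclei. Macrophage-marked nuclei differed in the same direction, with 152 CPM of Arntl in scopolamine and 65.8 CPM in control, and 48.8 CPM and 225 CPM of Nr1d2, The labels give no hour of collection, and hour and treatment cannot be told apart.

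Tamsulosin nuclei lay between the other libraries or near scopolamine for most of these genes. Arntl stood at 77.7 CPM in tamsulosin nuclei, 146 CPM in scopolamine nuclei and 44.2 CPM in control nuclei. Per3 stood at 62.7 CPM in tamsulosin nuclei, 32.7 CPM in scopolamine nuclei and 81.8 CPM in control nuclei, and Tef at 112 CPM in tamsulosin nuclei, 95.5 CPM in scopolamine nuclei and 272 CPM in control nuclei. In tamsulosin against scopolamine 2 clock genes of 10 were past 2-fold higher, Per2 with 35.6 CPM in tamsulosin nuclei, against 11.7 CPM in scopolamine nuclei and Hlf with 79.2 CPM in tamsulosin nuclei, against 29.7 CPM in scopolamine nuclei, and 0 were lower. Over all tested genes 5.88% were past 2-fold higher in that comparison and 1.7% lower. Hlf was higher in Dmbt1-Slc12a2 nuclei than in the low nuclei of each library. It had 105 CPM in tamsulosin nuclei, 109 CPM in scopolamine nuclei and 111 CPM in control nuclei among Dmbt1-Slc12a2 nuclei. Among the low nuclei it differed between libraries, with 41.3 CPM in tamsulosin nuclei, 16.4 CPM in scopolamine nuclei and 11.4 CPM in control nuclei. In Dmbt1-Slc12a2 nuclei Npas2 had 91.6 CPM in scopolamine nuclei, against 16.6 CPM in control nuclei, 5.51-fold (95% interval 2.999 to 10.9) higher, and 2 clock genes were past 2-fold higher and 2 lower in scopolamine. Over all genes tested in those nuclei 4.54% were past 2-fold higher and 2.3% lower.

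The 250 bases before the RefSeq start of Per3 (chr4:151044666-151044915, minus strand, GRCm38.p6) are shown as an example of a clock-controlled promoter whose gene was lower in scopolamine. That difference fell below 2-fold under 4 of 12 alternative settings of the processing, with relative log2 ratios from -1.2 to -0.09. In Dmbt1-Slc12a2 nuclei the ratio was -0.85, short of 2-fold. Capitals mark matches to TTATGNAA, the D-box type that Tef, Hlf and Dbp proteins bind, searched on both strands.
Per3: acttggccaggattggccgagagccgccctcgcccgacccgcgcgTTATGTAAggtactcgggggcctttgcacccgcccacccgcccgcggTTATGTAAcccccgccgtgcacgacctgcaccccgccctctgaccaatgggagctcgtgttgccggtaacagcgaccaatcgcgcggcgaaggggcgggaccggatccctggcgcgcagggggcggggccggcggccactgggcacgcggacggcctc
The matches begin 205 and 158 bases before the start. The motif was in 2 of 16 clock genes with a window and in 3.23% of all windows. The E-box CACGTG was in 5 of those 16 and in 6.05% of all windows. A match is a run of letters and not a bound site.

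**Figure D5:**
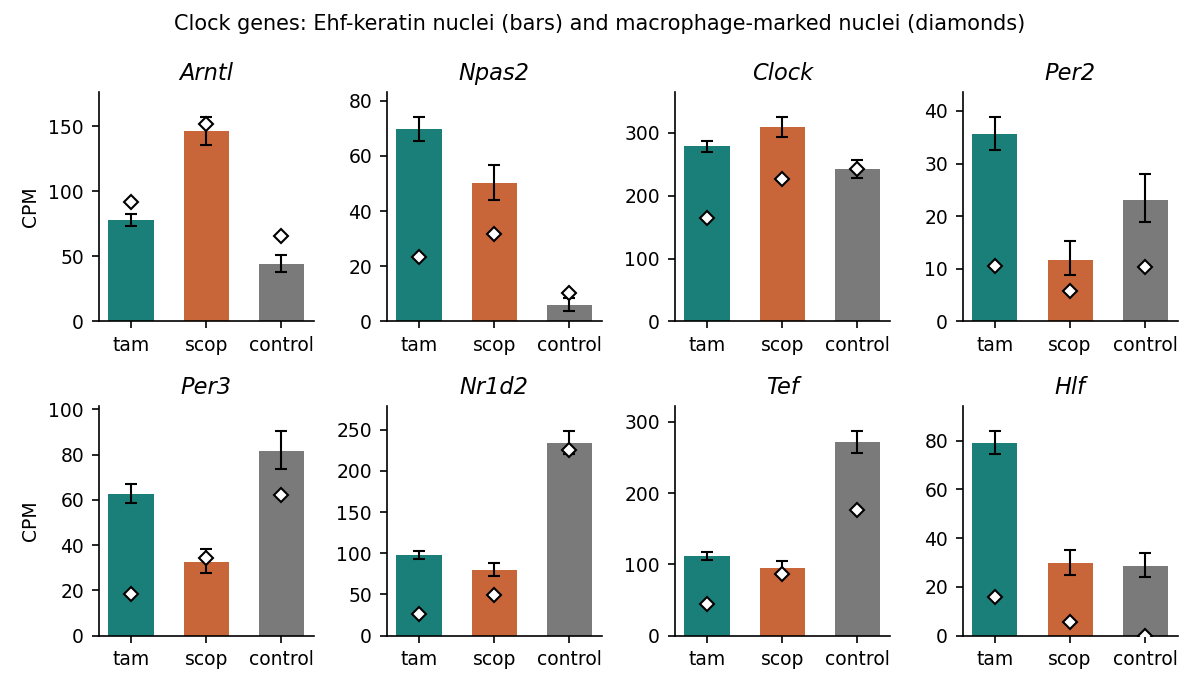
CPM (vertical axis, one scale per gene) of 8 clock genes in Ehf-keratin nuclei of the tamsulosin (tam), scopolamine (scop) and control libraries, with 95% Poisson intervals as error bars, and in macrophage-marked nuclei as white diamonds. Arntl is highest in scopolamine nuclei at 146 CPM, and Nr1d2 and Tef are highest in control nuclei at 234 and 272 CPM.

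Inflammatory lists were small. Of 9 measured NF-kB and acute phase genes 0 passed 2-fold in either direction in scopolamine against control (median relative log2 ratio 0.20), and in tamsulosin against scopolamine 1 did, the growth factor gene Csf1 with 32.6 CPM in tamsulosin nuclei, against 15.7 CPM in scopolamine nuclei. Of 11 interferon and antigen presentation genes 2 were higher in scopolamine (Oasl2 and B2m) and 0 lower, with a median relative log2 ratio of 0.68, where 2.78% of all tested genes were past 2-fold higher. In tamsulosin against scopolamine 3 were higher (Oasl2, B2m and H2-K1) and 0 lower, with a median of 0.52, where 5.88% of all tested genes were past 2-fold higher. B2m, the light chain of class I antigen presentation, had 61.5 CPM in tamsulosin nuclei, 18.7 CPM in scopolamine nuclei and 7.47 CPM in control nuclei, but 154 CPM in tamsulosin nuclei, 118 CPM in scopolamine nuclei and 111 CPM in control nuclei in macrophage-marked nuclei. Of 9 heat shock genes none passed 2-fold in either comparison, and of 7 glucocorticoid-response genes none passed in scopolamine against control and 1, Dusp1, was higher in tamsulosin against scopolamine.

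Receptors on which the treatments act were present. Adra1a, the alpha-1A adrenergic receptor that tamsulosin blocks, had 146 CPM in tamsulosin nuclei, 207 CPM in scopolamine nuclei and 314 CPM in control nuclei. That level was above macrophage-marked nuclei, at 28.8 CPM in tamsulosin nuclei, 112 CPM in scopolamine nuclei and 159 CPM in control nuclei, which lay in the same order. Neither Adra1a nor Chrm3 passed 2-fold in either comparison. Of 22 measured receptor genes of secretion and growth 1 was higher in scopolamine against control (Fgfr2) and 0 lower. Over all tested genes 2.78% were past 2-fold higher in that comparison and 0.948% lower. In tamsulosin against scopolamine 0 of the 22 were higher and 2 lower (Erbb4 and Prlr). There 5.88% of all tested genes were higher and 1.7% lower. The keratins Krt7 and Krt8 were used by the rule, so their levels are a description: Krt8 had 172 CPM in tamsulosin nuclei, 136 CPM in scopolamine nuclei and 68.6 CPM in control nuclei, and Krt7 had 51.5 CPM in tamsulosin nuclei, 25.7 CPM in scopolamine nuclei and 20.2 CPM in control nuclei. Inside Dmbt1-Slc12a2 nuclei Krt7 had 67.8 CPM in tamsulosin nuclei, 97.5 CPM in scopolamine nuclei and 76.7 CPM in control nuclei.

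Progenitor and repair genes had 3 of 7 past 2-fold higher in tamsulosin against scopolamine (Kit, Runx1 and Anxa1) and 0 lower, but 0 inside Dmbt1-Slc12a2 nuclei. Over all tested genes 5.88% were past 2-fold higher and 1.7% lower, and inside Dmbt1-Slc12a2 nuclei 3.1% and 0.656%. Kit, Runx1 and Anxa1 each fell below 2-fold under at least 1 alternative setting of the processing. In scopolamine against control 1 was higher, clusterin with 33.5 CPM in scopolamine nuclei, against 5.06 CPM in control nuclei, 6.63-fold (95% interval 4.26 to 10.8) higher. Over all tested genes 2.78% were past 2-fold higher in that comparison and 0.948% lower. Secretory transcripts of acini were higher in 12 of 21 measured genes in scopolamine against control and lower in 3 (Bpifa2, Lpo and Pnliprp1), and their summed level in macrophage-marked nuclei was 301353 CPM in tamsulosin nuclei, 157335 CPM in scopolamine nuclei and 55470 CPM in control nuclei, beside 188425 CPM in tamsulosin nuclei, 139993 CPM in scopolamine nuclei and 53487 CPM in control nuclei of the Ehf-keratin kind. Lpo and Pnliprp1 were higher in Ehf-keratin nuclei than in macrophage-marked nuclei of the scopolamine and control libraries. The part of RNA from other cells in these differences was not tested.

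Markers of macrophages, fibroblasts, T or NK, myoepithelial, and B and plasma cells summed to less in Ehf-keratin nuclei than in all other kept nuclei. This was in part because the rule removed nuclei with several of these markers. The endothelial markers did not sum to less. Summed over 12 macrophage markers the level was 99.5 CPM in tamsulosin, 121 CPM in scopolamine and 151 CPM in control, against 5419 CPM in tamsulosin nuclei, 6144 CPM in scopolamine nuclei and 5314 CPM in control nuclei of the macrophage-marked kind. Summed over 10 fibroblast markers it was 110.0 CPM in tamsulosin, 101 CPM in scopolamine and 58.3 CPM in control. Over 8 endothelial markers all other kept nuclei had 91.4 CPM in tamsulosin, 96.2 CPM in scopolamine and 67.7 CPM in control. In Ehf-keratin nuclei the endothelial level was higher, 227 CPM in tamsulosin, 99.7 CPM in scopolamine and 92.8 CPM in control. Of this Flt1 alone gave 213 CPM in tamsulosin, 77.6 CPM in scopolamine and 49.02 CPM in control. Over 10 T or NK markers the level in Ehf-keratin nuclei was 14.8 CPM in tamsulosin, 14.4 CPM in scopolamine and 16.3 CPM in control. Over 10 myoepithelial markers it was 25.03 CPM in tamsulosin, 39.5 CPM in scopolamine and 25.1 CPM in control. Over 9 B and plasma cell markers it was 167 CPM in tamsulosin, 28.6 CPM in scopolamine and 49.9 CPM in control, with the immunoglobulin gene Igha at 58.7 CPM in tamsulosin nuclei, 9.76 CPM in scopolamine nuclei and 25.9 CPM in control nuclei.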

How the data were processed

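Single-nucleus counts of 3 lacrimal gland libraries were analysed. Per the submitters' processing notes, the authors used Cell Ranger 5.0.0 with mm10, and deposited filtered matrices of whole UMI counts per gene and barcode. Barcodes with at least 500 UMIs, 300 genes and at most 5% mitochondrial UMIs were kept, and the rule on 10 genes was applied. Counts were summed over nuclei per library (CPM), with exact Poisson intervals, exact conditional binomial intervals for ratios and Clopper-Pearson intervals for shares. All cover counting error only. With 1 library per group no test was run. Genes were called at 2-fold on log2(CPM + 5), minus the median, at a mean of at least 20 CPM. Named genes were the 12 highest and 12 lowest per comparison at 50 CPM and 30 UMIs or more in the higher library and at least 1.5 times the other kept nuclei, the 20 leading genes, 5 per cluster and up to 4 per list at 50 CPM from 33 lists. Unnamed gene models, mitochondrial, ribosomal and hemoglobin genes were left out. List members past 2-fold and genes that show the mixture (Chrm3, Adra1a, Bhlha15, Klk1, Bpifa2 and others) were also named after their values were seen. Clusters came from scanpy 1.11.5 (1500 variable genes, 20 components, 15 neighbours, resolution 0.5, no integration). Doublets were kept and scored with Scrublet; a score over 0.5 was too rare to call them, so the highest scores (0.8% per 1000 barcodes) were left out as an alternative. Scripts were tested on simulated data. Members, lists and the Dmbt1-Slc12a2 split were chosen with earlier results of these data known. Promoter sequences are from RefSeq.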

Additional observations from a re-analysis of the deposited data

How the results depend on the processing

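Shares, counts and named genes of Ehf-keratin nuclei and of Dmbt1-Slc12a2 nuclei were recomputed with 1 choice changed at a time. Comparisons in the low nuclei and within clusters 2, 5 and 6 were not run under the alternatives. The tamsulosin share of Ehf-keratin nuclei stayed the highest under each alternative run, and the scopolamine share changed place with the control share. Shares of Ehf-keratin nuclei that moved beyond their counting interval were, by setting: At least 1600 UMIs, 21.7% (tamsulosin), 15.2% (scopolamine), 11.8% (control). Thinned to 1000 UMIs, 4.33% (tamsulosin), 2.24% (scopolamine), 1.85% (control). Duct genes at least 0.2% of UMIs, 5.26% (tamsulosin), 2.399% (scopolamine), 1.82% (control). Secretory-dominated barcodes left out of the denominator, 28.7% (tamsulosin), 9.512% (scopolamine). Clusters 7 and 9 left out, 19.2% (tamsulosin), 7.75% (scopolamine). For the share of Dmbt1-Slc12a2 nuclei they were: Thinned to 1000 UMIs, 1.76% (tamsulosin), 0.357% (scopolamine), 0.3197% (control). Secretory-dominated barcodes left out of the denominator, 17.5% (tamsulosin). Split at 0.1% of UMIs, 14.9% (tamsulosin), 2.12% (scopolamine), 2.36% (control). Split at 0.3% of UMIs, 6.83% (tamsulosin), 0.909% (scopolamine), 1.13% (control). Clusters 1, 3, 5, 6 and 8 in place of the split, 16.2% (tamsulosin), 2.99% (scopolamine), 2.56% (control). At least 1600 UMIs, 3.36% (scopolamine), beside a control share of 2.09% that stayed within its interval. The tamsulosin share was again the highest in each. Counts of genes past 2-fold that moved by over 1.5 times are given with S for scopolamine against control and T for tamsulosin against scopolamine. In Ehf-keratin nuclei these were: Pseudocount of 20 CPM, 91 (S higher), 34 (S lower), 236 (T higher), 56 (T lower). Mean of at least 50 CPM, 83 (S higher), 37 (S lower), 222 (T higher). No filter beyond 10 UMIs in all, 280 (S higher), 111 (S lower), 168 (T lower). Thinned to 1000 UMIs, 289 (S higher), 106 (S lower). Duct genes at least 0.2% of UMIs, 352 (S higher), 163 (S lower), 226 (T higher), 171 (T lower). No median subtracted, 168 (T lower). In Dmbt1-Slc12a2 nuclei they were: Pseudocount of 20 CPM, 128 (S higher), 55 (S lower), 111 (T higher), 12 (T lower). Mean of at least 50 CPM, 124 (S higher), 66 (S lower), 104 (T higher), 18 (T lower). No filter beyond 10 UMIs in all, 763 (S higher), 473 (S lower), 356 (T higher), 120 (T lower). Thinned to 1000 UMIs, 635 (S higher), 540 (S lower), 348 (T higher), 139 (T lower). No median subtracted, 226 (S lower), 68 (T lower). Split at 0.3% of UMIs, 212 (S lower), 298 (T higher), 63 (T lower). Where fewer or more genes were tested, or fewer UMIs counted, the setting itself changes the count; otherwise the cause was not tested. Of named genes past 2-fold, 21 of 49 fell below 2-fold under at least 1 alternative in scopolamine against control and 38 of 80 in tamsulosin against scopolamine. In Dmbt1-Slc12a2 nuclei these were 20 of 52 and 14 of 38. None of the named genes past 2-fold changed sign under these alternatives. At a Leiden resolution of 1.0 there were 18 clusters. The split, its limits of 0.1% and 0.3%, the clusters used in its place, and leaving out clusters 7 and 9 were chosen after seeing the data. Settings on 0.2% of UMIs, 1000 or 1600 UMIs are depth-dependent, since a shallow nucleus cannot hold 3 UMIs of the rule genes as often. No paired analysis was possible because each group has 1 library.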
